A study of Homo sapiens with 15 samples.

Results

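Knockdown of B3GNT3 in the human pancreatic ductal adenocarcinoma line Capan-1 was measured by RNA sequencing of total RNA in 6 of the 15 libraries of the series. Members were chosen by their labels alone: 3 Capan-1 libraries of cells given an siRNA against B3GNT3 (siB3GNT3) and 3 Capan-1 libraries of cells given a control siRNA (siNC). Both groups therefore carry an siRNA, and no cells without one enter the comparison. The series title names MHC class I and CD8+ T cell responses as the study's question. The sample titles name the line Capan-1, while its cell line field is spelled Capable-1. The other 9 libraries are of AsPC-1, another line of the same cancer, and 6 of these (3 siB3GNT3 and 3 siNC) are used for a single comparison at the end. Whether the 3 libraries within a group stem from separate cultures is not labelled, and p-values therefore cover only the spread among them, which may be technical. The time of siRNA exposure, its dose and the siRNA sequences are not given in the sources used here.

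B3GNT3 is a Golgi enzyme that adds N-acetylglucosamine to extend core 1 O-glycans, the sugar chains carried by mucin-type glycoproteins, and so sets up the branch to which further galactose and sulphate are added. Groups of genes described here answer to well known control systems. In the integrated stress response, phosphorylation of the initiation factor eIF2 slows translation and raises ATF4, which with CHOP (the product of DDIT3) drives genes of amino acid supply and transport. Interferon-stimulated genes are driven by signalling from the interferon receptors, and heat shock genes by HSF1.

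Each of these 3 programmes has a well known short DNA element, which was searched for in RefSeq promoters (GRCh38.p14, 250 bases before to 50 bases after each annotated start, both strands). The core of the C/EBP-ATF response element was written TGATGNAA, that of the interferon-stimulated response element GAAANNGAA, and the unit of the heat shock element GAANNTTC, which reads the same on both strands. TGATGNAA was present in 4.46% of 27305 genes with a promoter in that set and in 6 of the 27 matched stress response genes among the 32 tested. GAAANNGAA was present in 9.86% of all genes and in 28 of the 38 matched interferon-stimulated genes among the 48 tested. GAANNTTC was present in 8.21% of all genes and in 10 of the 14 matched heat shock genes among the 15 tested. A match is a description of the letters, not a bound site. The 7 promoters shown here belong to genes whose levels carry the results below, with the matches in capitals. CHAC1 lies on the plus strand with its window at chr15:40953221-40953520, ATF3 on the plus strand at chr1:212565157-212565456 and CEBPG on the plus strand at chr19:33373863-33374162. These windows hold 1 match of TGATGNAA each. ATF3 and CEBPG each have 2 windows in that set, of which only the 1 shown holds a match. A gene was counted above as holding a motif if any of its windows did. IFITM1 lies on the plus strand at chr11:313790-314089 with 2 matches of GAAANNGAA, and IFI6 on the minus strand at chr1:27672143-27672442 with 3. HSPA8 lies on the minus strand at chr11:123062087-123062386 with 2 matches of GAANNTTC, and HSPA1A on the plus strand at chr6:31815293-31815592 with 1. None of these windows holds a match of either of the other motifs.
CHAC1: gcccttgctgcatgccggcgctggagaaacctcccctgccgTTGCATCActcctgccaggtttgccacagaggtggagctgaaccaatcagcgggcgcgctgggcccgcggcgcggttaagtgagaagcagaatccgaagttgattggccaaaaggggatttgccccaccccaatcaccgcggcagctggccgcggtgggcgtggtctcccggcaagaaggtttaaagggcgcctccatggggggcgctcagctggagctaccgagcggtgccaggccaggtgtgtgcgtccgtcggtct
ATF3: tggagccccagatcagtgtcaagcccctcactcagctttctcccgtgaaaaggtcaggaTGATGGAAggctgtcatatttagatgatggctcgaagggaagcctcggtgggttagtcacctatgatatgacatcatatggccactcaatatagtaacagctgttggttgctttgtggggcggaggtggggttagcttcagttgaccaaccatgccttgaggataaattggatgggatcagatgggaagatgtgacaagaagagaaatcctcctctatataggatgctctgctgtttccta
CEBPG: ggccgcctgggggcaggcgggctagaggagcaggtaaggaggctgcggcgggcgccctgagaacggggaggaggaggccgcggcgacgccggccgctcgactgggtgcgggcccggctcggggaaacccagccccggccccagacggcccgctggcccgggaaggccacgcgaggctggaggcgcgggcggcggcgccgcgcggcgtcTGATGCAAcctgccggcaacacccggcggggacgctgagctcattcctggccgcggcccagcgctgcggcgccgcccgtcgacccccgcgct
IFITM1: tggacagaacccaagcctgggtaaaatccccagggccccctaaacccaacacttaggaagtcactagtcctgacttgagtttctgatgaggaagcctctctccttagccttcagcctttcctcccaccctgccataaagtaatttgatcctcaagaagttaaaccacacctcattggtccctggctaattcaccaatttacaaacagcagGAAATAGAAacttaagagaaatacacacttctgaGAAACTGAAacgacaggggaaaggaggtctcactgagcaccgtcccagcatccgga
IFI6: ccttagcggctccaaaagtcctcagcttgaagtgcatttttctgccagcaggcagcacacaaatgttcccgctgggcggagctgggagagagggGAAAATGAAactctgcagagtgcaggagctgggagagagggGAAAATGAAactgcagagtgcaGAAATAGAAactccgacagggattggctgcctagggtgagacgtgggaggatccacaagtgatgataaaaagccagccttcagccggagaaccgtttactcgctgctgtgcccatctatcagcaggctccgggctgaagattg
HSPA8: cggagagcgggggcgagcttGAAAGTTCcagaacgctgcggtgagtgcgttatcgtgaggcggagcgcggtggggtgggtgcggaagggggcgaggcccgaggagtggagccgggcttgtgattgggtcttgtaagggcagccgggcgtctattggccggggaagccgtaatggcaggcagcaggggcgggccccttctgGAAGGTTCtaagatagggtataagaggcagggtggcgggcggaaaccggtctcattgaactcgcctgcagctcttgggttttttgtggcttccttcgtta
HSPA1A: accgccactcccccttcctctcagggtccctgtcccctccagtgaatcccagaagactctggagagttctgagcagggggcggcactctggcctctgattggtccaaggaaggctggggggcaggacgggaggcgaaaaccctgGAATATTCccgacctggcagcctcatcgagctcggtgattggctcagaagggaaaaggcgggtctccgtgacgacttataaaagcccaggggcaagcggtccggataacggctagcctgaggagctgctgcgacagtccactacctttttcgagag

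Levels of 25503 genes were given as FPKM, fragments per kilobase of transcript scaled to the library's size, and 3030 genes had an FPKM of 0 throughout the 6 libraries. Between 11422 and 11531 genes reached an FPKM of 1 in the siB3GNT3 libraries and between 11300 and 11314 in the siNC libraries. The 13 mitochondrially encoded mRNAs held 13.6% to 14.4% of the summed FPKM in siB3GNT3 libraries and 14.3% to 14.8% in siNC libraries. Read totals are not part of the table, and the steps between low values placed the relative depth of the 6 libraries between 0.957 and 1.04 of siNC replicate 1. Keratins of simple epithelium marked the cells in every library: KRT8 was at 1199 to 1490.1 FPKM with siB3GNT3 and 1694 to 1797 FPKM with siNC. The mesenchymal filament gene VIM was also high, at 1499 to 1668 FPKM with siB3GNT3 and 1577 to 1657 FPKM with siNC. Of the leukocyte markers, PTPRC, CD3E, CD3D, CD8A and CD4 were at or near 0 in all 6 libraries, at no more than 0.074 FPKM. The summed leukocyte list, at 176 to 218 FPKM with siB3GNT3 and 163 to 177 FPKM with siNC, was mostly CD68. Its other tested members went opposite ways: CD14 rose, at 5.44, 4.18 and 4.91 FPKM with siB3GNT3 against 2.91, 2.67 and 2.98 FPKM with siNC (limma, adjusted p = 0.00339), and LYZ, also a classical lineage gene, fell to 1.61, 1.42 and 1.24 FPKM with siB3GNT3, against 2.25, 2.00 and 2.94 FPKM with siNC (limma, adjusted p = 0.017). Of the fibroblast markers, COL1A2, COL3A1 and DCN reached at most 0.194 FPKM in any library, and the summed list, at 81.8 to 87.8 FPKM with siB3GNT3 against 58.6 to 64.4 FPKM with siNC, was mostly COL1A1. COL1A1 and ACTA2 rose and LUM fell, ACTA2 to at most 2.08 FPKM and LUM to between 5.63 and 6.05 FPKM with siB3GNT3, against up to 1.34 and 9.13 to 10.1 FPKM with siNC. The call of ACTA2 was lost without siNC replicate 1 or 3 (adjusted p = 0.0628 and 0.0579), and that of LYZ without siB3GNT3 replicate 2 or siNC replicate 3 (adjusted p = 0.0515 and 0.0578). The part of other cell types in the results was not tested. Endothelial and pancreatic acinar and endocrine markers summed to at most 1.68 FPKM in any library.

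The target itself was low in all 3 knockdown libraries. B3GNT3 (chromosome 19, 17794828 to 17813082, plus strand, GRCh38, protein coding) was at 1.32, 1.67 and 1.84 FPKM in siB3GNT3 replicates 1, 2 and 3, against 13.3, 13.2 and 13.7 FPKM in siNC replicates 1, 2 and 3. The groups did not overlap, and the log2 fold change was -2.47 ± 0.09 (SE, n = 3 each; limma, adjusted p = 1.23e-05). All fold changes here are siB3GNT3 over siNC on log2(FPKM + 1), a scale that understates changes of low genes. Relative to the siNC mean, the target differed among the 3 knockdown libraries by a range of 0.291 on the log2 scale. Among the 7 tested members of the B3GNT family, B4GAT1, which primes matriglycan on dystroglycan, was the other member called (32.9% of all genes tested were), at 15.5, 16.7 and 25.8 FPKM with siB3GNT3 against 35.1, 31.6 and 31.0 FPKM with siNC (log2 fold change -0.76, limma, adjusted p = 0.0111). Its call was lost without siNC replicate 1 (adjusted p = 0.0502). Of the 7 B4GALT galactosyltransferases 1 rose and 1 fell (18.7% and 14.2% of all genes tested did). B4GALT1, the main enzyme for N-acetyllactosamine on glycoproteins, was at 29.5, 24.3 and 23.6 FPKM with siB3GNT3 against 14.96, 15.5 and 15.2 FPKM with siNC. It rose by 0.72 ± 0.09 on the log2 scale (limma, adjusted p = 0.00109), a call that was lost in a fit of all 15 libraries (adjusted p = 0.137). B4GALT6 fell (log2 fold change -0.53, limma, adjusted p = 0.00553). B4GALT5, the lactosylceramide synthase, was at 63.5, 68.9 and 72.3 FPKM with siB3GNT3 against 74.2, 76.4 and 76.0 FPKM with siNC; its log2 fold change of -0.15 did not pass the test (limma, adjusted p = 0.12), and it did without siB3GNT3 replicate 3 (adjusted p = 0.0186), when 3 B4GALT genes were lower.

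Enzymes of O-glycan synthesis were called about as often as all genes. Of 15 tested, 2 rose and 3 fell (18.7% and 14.2% of all genes), with a median log2 fold change of -0.146 against 0.0244 over all genes. GALNT7 and GCNT3 rose by 0.39 each; GCNT3 makes core 2 and core 4 branches. GALNT5, which starts O-glycans, fell to 3.75, 4.94 and 6.77 FPKM with siB3GNT3, against 9.05, 9.17 and 10.3 FPKM with siNC (log2 fold change -0.80, limma, adjusted p = 0.00814). C1GALT1C1, the chaperone of the core 1 galactosyltransferase, fell by 0.41, and GALNT6, which starts O-glycans, fell by 0.27. Both of these calls were lost without siB3GNT3 replicate 2 or any siNC library (adjusted p = 0.0522 to 0.0803). The number lower was 5 without siB3GNT3 replicate 1 and 1 in those 4 cases, and the number higher was 4 without siB3GNT3 replicate 3. Of 5 mucins tested, 1 rose and 1 fell, near the shares of all genes (18.7% and 14.2%). MUC16 rose to 6.11, 5.89 and 5.63 FPKM with siB3GNT3, against 3.11, 4.34 and 3.46 FPKM with siNC (log2 fold change 0.58, limma, adjusted p = 0.00544). MUC13 fell by 0.57, and without siB3GNT3 replicate 3 the mucins that were higher were 2. MUC1 was at 58.7, 57.9 and 58.4 FPKM with siB3GNT3 and 56.1, 60.3 and 54.99 FPKM with siNC, and the groups overlapped (log2 fold change 0.03, which was -0.02 under median-ratio scaling).

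Across all genes the knockdown was accompanied by changes in a large share of the genes tested. Of 11493 genes that reached 1 FPKM in 3 or more libraries, 2152 (18.7%) rose and 1634 (14.2%) fell at an adjusted p under 0.05 (limma), 32.9% in all. The 3 siB3GNT3 libraries lay above or below all 3 siNC libraries in 50.1% of the genes. Most changes were small: 121 of the genes that rose and 88 of those that fell changed by at least 2-fold. The split of the calls depended on scaling, with 1781 higher and 2079 lower under median-ratio scaling and 2455 higher and 1404 lower after rescaling to a common sum; the median log2 fold change of all genes was 0.0244, -0.0167 and 0.0596 in these 3 cases. Leaving out siB3GNT3 replicate 3 gave 5715 calls, 3005 higher and 2710 lower of 11338 genes tested. Leaving out siNC replicate 1, 2 or 3 gave 2069, 2083 and 2112 calls, of which 1197, 1211 and 1236 were higher and 872, 872 and 876 lower. Without siB3GNT3 replicate 1 or 2 there were 2754 and 2677 calls. Counts of list members with a library left out are to be read against these totals, which move as well.

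The 3 knockdown libraries lay at different distances from the controls. They are numbered as their titles are, and the library titled replicate 3 has the number 4 in its library name. The root mean square log2 difference from the siNC libraries was 0.438 to 0.446 for siB3GNT3 replicate 1, 0.380 to 0.390 for replicate 2 and 0.338 to 0.346 for replicate 3, while pairs of siNC libraries lay 0.135 to 0.145 apart. Replicates 1 and 2 differed by 0.177, and replicate 3 differed from them by 0.314 and 0.272. Against the siNC mean, 250 genes were at least 2-fold higher and 143 lower in replicate 1, 143 higher and 99 lower in replicate 2, and 84 higher and 76 lower in replicate 3. Among the 121 genes called at least 2-fold higher, 61.2% had their highest value in replicate 1 and their lowest in replicate 3. This held for 43.8% of all genes called higher and 24.2% of all genes tested. This order was not shared alike by all gene groups. Among the 88 genes called at least 2-fold lower, 38.6% had their lowest value in replicate 1 and their highest in replicate 3. That share was near the 39.5% of all genes called lower, and 23% of all genes tested had that order.

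Genes of the integrated stress response rose together and by unequal amounts in the 3 libraries. Of 32 tested, 27 rose and 1 fell (background 18.7% and 14.2%), with a median log2 fold change of 0.938 against 0.0244 over all genes. The median difference from the siNC mean was 1.34 in siB3GNT3 replicate 1, 1.04 in replicate 2 and 0.419 in replicate 3. In 28 of the 32 genes replicate 1 was highest and replicate 3 lowest, an order held by 43.8% of all genes called higher and 24.2% of all genes tested. In 26 of the 28 genes called, the difference in replicate 3 was under 0.5 times that in replicate 1. It was so for 26.4% of all genes called at least 2-fold higher and 13.6% of those called at least 2-fold lower. The count of stress response genes higher was 23, 21 and 30 without siB3GNT3 replicate 1, 2 or 3. With no filter on low values it was 14 of 36.

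DDIT3, ATF3, CEBPB and CEBPG, transcription factors of the response, rose. DDIT3, which encodes CHOP (chromosome 12, 57516588 to 57521737, minus strand), was at 102, 79.9 and 32.7 FPKM with siB3GNT3 against 17.2, 14.9 and 15.98 FPKM with siNC (log2 fold change 1.95 ± 0.35, limma, adjusted p = 0.00501). ATF3, a stress-induced repressor, was at 9.90, 5.53 and 2.71 FPKM with siB3GNT3 against 1.20, 1.04 and 1.10 FPKM with siNC. CEBPB was at 107, 101 and 55.9 FPKM with siB3GNT3 against 33.0, 30.3 and 29.9 FPKM with siNC. All 3 had their lowest knockdown value in replicate 3, which still lay above every siNC library. CEBPG, a partner of ATF4, was at 21.9, 16.3 and 11.2 FPKM with siB3GNT3 against 6.67, 6.61 and 5.89 FPKM with siNC. ATF4 mRNA, whose product is controlled mainly at translation, was even over the libraries, at 58.3, 55.7 and 57.0 FPKM with siB3GNT3 against 46.6, 44.4 and 45.6 FPKM with siNC (log2 fold change 0.32, limma, adjusted p = 0.00548). ATF5 was the member that fell, to 4.40, 5.11 and 7.17 FPKM with siB3GNT3, against 10.1, 9.76 and 8.99 FPKM with siNC.

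SESN2, TRIB3 and DDIT4, which feed back on stress and growth signalling, had wide ranges over the knockdown libraries. SESN2, which restrains the growth kinase mTORC1, was at 42.5, 30.1 and 11.2 FPKM with siB3GNT3 against 4.50, 5.15 and 4.35 FPKM with siNC (log2 fold change 2.17 ± 0.39, limma, adjusted p = 0.00505). TRIB3, a pseudokinase that binds AKT and ATF4, was at 86.0, 43.5 and 21.6 FPKM with siB3GNT3 against 11.3, 11.6 and 10.01 FPKM with siNC. DDIT4, another brake on mTORC1, was at 310, 237 and 89.5 FPKM with siB3GNT3 against 58.6, 52.1 and 48.7 FPKM with siNC. Their ranges over the knockdown libraries were 1.83, 1.95 and 1.78 on the log2 scale, in that order. CHAC1, which degrades glutathione, was at 13.1, 10.6 and 3.59 FPKM with siB3GNT3 against 1.45, 1.26 and 0.964 FPKM with siNC. GDF15, a secreted stress hormone, was at 94.8, 59.1 and 27.9 FPKM with siB3GNT3 against 19.0, 15.9 and 14.9 FPKM with siNC. In each of these genes the library lowest among the knockdowns was replicate 3, and the groups did not overlap. With no filter on low values TRIB3, DDIT4 and GDF15 missed the threshold (adjusted p = 0.0565, 0.0587 and 0.0631).

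PSPH and PSAT1, enzymes of serine synthesis counted in the stress response list, rose. PSPH, the last enzyme of serine synthesis, was at 21.1, 19.8 and 13.9 FPKM with siB3GNT3 against 8.88, 8.11 and 8.44 FPKM with siNC (log2 fold change 1.00, limma, adjusted p = 0.00176). PSAT1, which precedes it, was at 65.9, 53.7 and 34.4 FPKM with siB3GNT3 against 23.1, 21.8 and 22.0 FPKM with siNC. The amino acid carriers SLC7A5 and SLC7A1 did not pass the test (log2 fold changes 0.19 and 0.30), and for both the value in siB3GNT3 replicate 3, at 60.6 and 17.4 FPKM, was under every siNC library. Both passed without that library (adjusted p = 0.025 and 0.000326), and the difference of SLC7A5 was -0.05 without siB3GNT3 replicate 1. Of 18 cytosolic aminoacyl-tRNA synthetases, which load tRNAs and are partly ATF4 targets, 8 rose and 1 fell (18.7% and 14.2% of all genes). WARS1, which interferon also induces, was at 208, 185 and 155 FPKM with siB3GNT3 against 109, 112 and 112 FPKM with siNC (log2 fold change 0.71, limma, adjusted p = 0.00191), and AARS1 at 188, 159 and 112 FPKM with siB3GNT3 against 87.1, 82.7 and 84.8 FPKM with siNC. The count of synthetases that were higher was 5 without siB3GNT3 replicate 2 and 4 without siNC replicate 2 or 3. The member that fell, RARS1, was called lower neither without siB3GNT3 replicate 1 nor without any siNC library, and 3 members were lower without siB3GNT3 replicate 3.

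Chaperones of the endoplasmic reticulum fell more often than they rose. Of 23 tested genes of this list, 2 rose and 11 fell (18.7% and 14.2% of all genes), with a median log2 fold change of -0.235. PDIA6, a protein disulphide isomerase, was at 110, 126 and 140 FPKM with siB3GNT3 against 211, 205 and 207 FPKM with siNC (log2 fold change -0.73, limma, adjusted p = 0.000903). DNAJC3, an inhibitor of the eIF2 kinases, was at 10.7, 10.8 and 12.6 FPKM with siB3GNT3 against 18.7, 19.7 and 18.5 FPKM with siNC. CALR fell by 0.42. HSPA5, the main chaperone of this compartment, was at 207, 217 and 267 FPKM with siB3GNT3 and 270, 255 and 270 FPKM with siNC, and did not pass the test (limma, adjusted p = 0.122). It was called lower without siB3GNT3 replicate 3 (adjusted p = 0.00113). The members that rose were XBP1 and HERPUD1, and neither call held without siB3GNT3 replicate 1 or 2 or any siNC library (adjusted p = 0.0787 to 0.131). Without siNC replicate 1, 2 or 3, the number that were lower was 4, 6 and 6.

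Of 15 heat shock genes tested, 1 rose (HSF1) and 7 fell (18.7% and 14.2% of all genes), with a median log2 fold change of -0.306. HSPA8, the constitutive HSP70, was at 187, 380 and 771 FPKM with siB3GNT3 against 891, 859 and 886 FPKM with siNC. All 3 knockdown values lay under the siNC values, yet the log2 fold change of -1.21 ± 0.41 did not pass the test (limma, adjusted p = 0.0544), and it did without siB3GNT3 replicate 3 (adjusted p = 0.00023). Without siB3GNT3 replicate 1 the log2 fold change was -0.70. HSPA1A, an inducible HSP70, was at 6.09, 6.46 and 22.3 FPKM with siB3GNT3 against 49.4, 48.4 and 48.0 FPKM with siNC (log2 fold change -2.21, limma, adjusted p = 0.00493). Its near-identical copy HSPA1B was at 10.9, 12.99 and 37.4 FPKM with siB3GNT3 against 44.9, 40.3 and 38.6 FPKM with siNC, and how reads were split between the copies is uncertain. The call of HSPA1B (adjusted p = 0.0419) was lost without siB3GNT3 replicate 1 or 2 or any siNC library (adjusted p = 0.0959 to 0.139). HSPB8, a small heat shock protein, was even over the libraries, at 1.67, 1.95 and 2.17 FPKM with siB3GNT3 against 5.53, 5.48 and 6.07 FPKM with siNC. The number of heat shock genes lower was 11 without siB3GNT3 replicate 3 and 2 without siNC replicate 1, 2 or 3. The rise of HSF1 was lost without siB3GNT3 replicate 1 or any siNC library (adjusted p = 0.0619 to 0.107).

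Interferon-stimulated genes rose nearly as a whole and to a like degree in the 3 knockdown libraries. Of 48 tested, 44 rose and none fell (background 18.7% and 14.2%), with a median log2 fold change of 0.907. The median difference from the siNC mean was 0.866 in siB3GNT3 replicate 1, 0.942 in replicate 2 and 0.901 in replicate 3. The median range over the 3 siB3GNT3 libraries was 0.244 for these genes and 0.927 for stress response genes, while over the 3 siNC libraries it was 0.246 and 0.139. In 1 of the 44 genes called, IRF1, the difference in replicate 3 was under 0.5 times that in replicate 1. That held for 26 of 28 called stress response genes and for 26.4% of all genes called at least 2-fold higher. The count of interferon-stimulated genes that were higher was 43, 41 and 44 without siB3GNT3 replicate 1, 2 or 3. Under all other settings it was between 33 and 45.

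**Figure D1:**
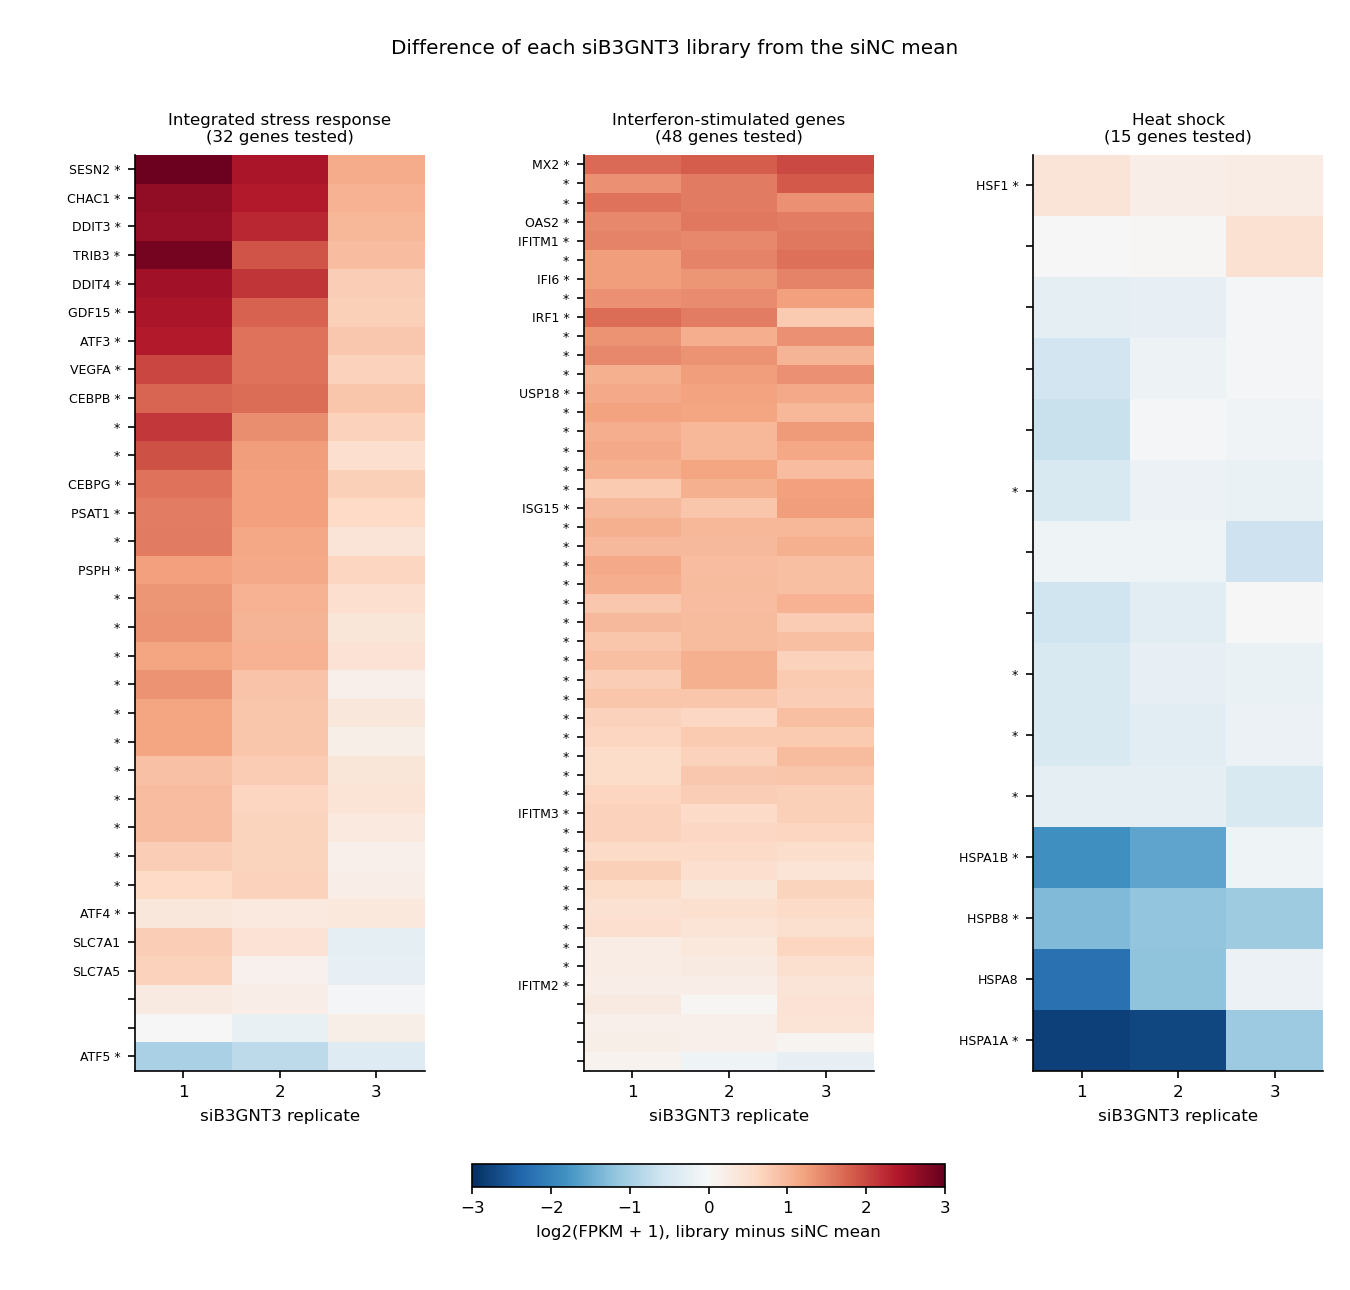
Difference of each siB3GNT3 library from the mean of the 3 siNC libraries on log2(FPKM + 1), by colour, for the tested genes of 3 lists, with labels on the genes described in the text; a star marks genes called at an adjusted p under 0.05. In the integrated stress response columns 1 and 2 are darker than column 3 (list medians 1.34, 1.04 and 0.419), while the columns of the interferon-stimulated genes are alike (0.866, 0.942 and 0.901).

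IFITM1, IFI6, OAS2 and MX2, products of which act against viruses, rose. Their ranges over these libraries were 0.149, 0.246, 0.125 and 0.295 on the log2 scale, in that order, and that of ISG15, a ubiquitin-like modifier, was 0.435. IFITM1, a membrane protein that blocks viral entry (chromosome 11, 313506 to 315272, plus strand), was at 465, 450 and 499.5 FPKM with siB3GNT3 against 164, 160 and 174 FPKM with siNC (log2 fold change 1.50 ± 0.06, limma, adjusted p = 2.31e-05), and may share reads with the similar IFITM2 and IFITM3. IFI6 was at 194, 205 and 230.3 FPKM with siB3GNT3 against 77.6, 77.3 and 90.1 FPKM with siNC. OAS2, an antiviral oligoadenylate synthetase, was at 27.4, 30.0 and 29.3 FPKM with siB3GNT3 against 8.03, 9.21 and 11.3 FPKM with siNC. In all 3 genes siNC replicate 3 was the highest control, and every knockdown library lay above it. MX2, a dynamin-like GTPase, had its highest knockdown value in replicate 3, at 18.4, 20.2 and 22.8 FPKM with siB3GNT3 against 4.02, 4.75 and 6.501 FPKM with siNC (log2 fold change 1.83). USP18, which removes ISG15 and damps the interferon receptor, was at 21.8, 23.1 and 21.6 FPKM with siB3GNT3 against 8.69, 9.40 and 10.03 FPKM with siNC.

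Sensors, ligands and receptors of the interferon pathway were measured beside these genes. Of 13 RNA sensing genes, 6 rose and 2 fell (18.7% and 14.2% of all genes), so that the share that fell was near that of all genes. IFIH1, the sensor MDA5, was at 13.8, 13.6 and 14.7 FPKM with siB3GNT3 against 6.67, 6.80 and 8.90 FPKM with siNC (log2 fold change 0.84, limma, adjusted p = 0.00112), and DDX58, the sensor RIG-I, at 24.1, 22.3 and 17.2 FPKM with siB3GNT3 against 8.40, 9.05 and 11.5 FPKM with siNC. ADAR, which edits double-stranded RNA, rose by 0.55. ZNFX1 was among those that fell. Of 7 tested interferon and receptor genes, 2 rose and none fell (18.7% and 14.2% of all genes). IFNAR2, a chain of the type I receptor, rose to 23.0, 23.4 and 23.8 FPKM with siB3GNT3, against 16.9, 17.1 and 17.1 FPKM with siNC. IFNGR1 rose by 0.49. The ligands IFNB1, IFNL1, IFNL2 and IFNL3 were under the filter, with highest values of 0.255, 0.358, 0.141 and 0.054 FPKM in siB3GNT3 libraries and 0.0601, 0.198, 0 and 0 FPKM in siNC libraries. IFNA1, IFNG and IFNK were not analysed here. SOCS1 and SOCS3, suppressors of cytokine signalling, also rose. SOCS1 was at 29.1, 27.6 and 22.6 FPKM with siB3GNT3 against 6.94, 6.80 and 6.36 FPKM with siNC (log2 fold change 1.83 ± 0.10, limma, adjusted p = 5.72e-05). SOCS3 was at 34.8, 46.8 and 34.5 FPKM with siB3GNT3 against 10.7, 10.1 and 10.2 FPKM with siNC.

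**Figure D2:**
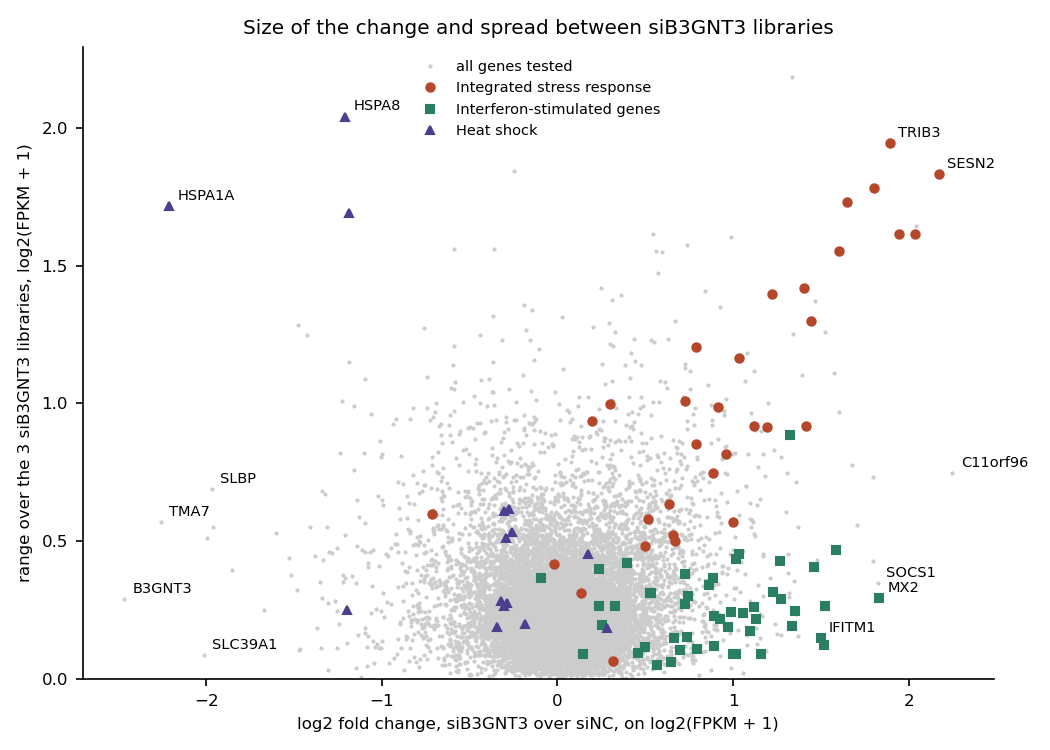
Each point is a gene: log2 fold change of siB3GNT3 over siNC on log2(FPKM + 1) against the range over the 3 siB3GNT3 libraries on the same scale, with 3 lists in colour. SESN2 and TRIB3 combine large changes with ranges of 1.83 and 1.95, whereas IFITM1, SOCS1 and SLC39A1 changed by 1.50, 1.83 and -2.01 with ranges of 0.149, 0.349 and 0.0877.

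MHC class I, which presents peptides to CD8 T cells, was raised in part. HLA-B, HLA-C and B2M rose, and HLA-E and HLA-F did not pass the test. HLA-B was at 110, 115 and 124 FPKM with siB3GNT3 against 89.2, 79.3 and 82.3 FPKM with siNC (log2 fold change 0.48 ± 0.07, limma, adjusted p = 0.00243). HLA-C was at 176, 178 and 195 FPKM with siB3GNT3 against 155, 143 and 148 FPKM with siNC (log2 fold change 0.30, limma, adjusted p = 0.0109), a call that was lost without siNC replicate 2 or 3 (adjusted p = 0.0593 and 0.052). B2M, the light chain, was at 506, 551 and 501 FPKM with siB3GNT3 against 431, 411 and 423 FPKM with siNC (log2 fold change 0.30, limma, adjusted p = 0.00777). Heavy chain genes share long stretches of sequence and differ between people, so the split of reads among them is uncertain. These are mRNA levels, not protein at the cell surface.

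Most genes for making and loading class I peptides rose in the fit of the 6 libraries. Of 16 tested, 10 rose and 2 fell (18.7% and 14.2% of all genes), with a median log2 fold change of 0.337. The number higher was 9, 9 and 10 without siB3GNT3 replicate 1, 2 or 3. It was 7, 9 and 9 without siNC replicate 1, 2 or 3, and 8 with no filter on low values. TAP1, a subunit of the peptide transporter (chromosome 6, 32845209 to 32853978, minus strand), was at 66.5, 67.3 and 70.8 FPKM with siB3GNT3 against 31.5, 32.4 and 35.7 FPKM with siNC (log2 fold change 1.02 ± 0.07, limma, adjusted p = 9.88e-05). NLRC5, the transactivator of class I genes, was at 4.10, 4.01 and 4.22 FPKM with siB3GNT3 against 1.90, 2.00 and 2.07 FPKM with siNC. The immunoproteasome subunits PSMB8 and PSMB9 rose by 0.60 and 0.54, while PSMB10 did not pass the test (log2 fold change 0.16). The members that fell were CALR, also counted among the chaperones, and PSME3, whose call was lost in every case with a library left out other than siB3GNT3 replicate 3 (adjusted p = 0.101 to 0.164). PSMB9 was not called without siNC replicate 1 (adjusted p = 0.0511). List medians for these genes were 0.312, 0.331 and 0.338 in siB3GNT3 replicates 1, 2 and 3. Of 13 ligands and checkpoint genes read by T and NK cells, 5 rose and 2 fell (18.7% and 14.2% of all genes). IDO1, which degrades tryptophan, was at 3.48, 2.73 and 2.68 FPKM with siB3GNT3 against 1.01, 0.818 and 0.721 FPKM with siNC, and ULBP2, a ligand of NKG2D, at 6.22, 6.46 and 7.19 FPKM with siB3GNT3 against 9.85, 9.72 and 10.8 FPKM with siNC. ULBP3, also a ligand of NKG2D, was the other member that fell. ULBP1, of the same kind, was under the filter and not tested, with highest values of 4.16 FPKM in siB3GNT3 libraries and 0.908 FPKM in siNC libraries. CD274, which encodes PD-L1, was at 2.52, 2.21 and 1.00 FPKM with siB3GNT3 and 0.648, 1.01 and 1.10 FPKM with siNC, and did not pass the test (limma, adjusted p = 0.0651), but did without siB3GNT3 replicate 3 (adjusted p = 0.000497). Without any 1 of the siNC libraries 3 of these ligands were higher.

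**Figure D3:**
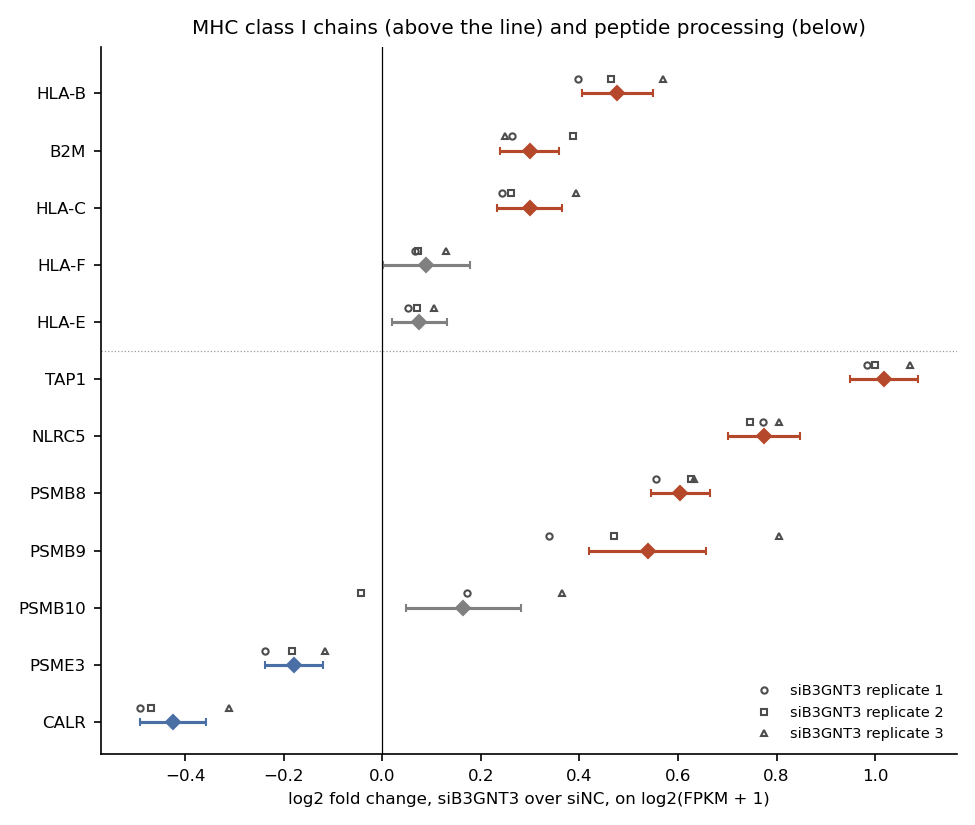
Log2 fold change with its SE for 5 MHC class I chains and 7 genes of peptide processing described in the text; small open symbols are the 3 siB3GNT3 libraries minus the siNC mean, and filled diamonds are red for genes that rose, blue for genes that fell and grey otherwise. TAP1 stands at 1.02 and HLA-B at 0.48, while HLA-E stands at 0.08 with a grey diamond.

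NF-kB targets and inflammatory mediators rose in part. Of 14 NF-kB genes, 7 rose and none fell (18.7% and 14.2% of all genes), and list medians were 0.671, 0.329 and 0.184 in siB3GNT3 replicates 1, 2 and 3. BIRC3, an inhibitor of apoptosis, was at 73.3, 63.1 and 48.1 FPKM with siB3GNT3 against 29, 29.7 and 28.4 FPKM with siNC (log2 fold change 1.04, limma, adjusted p = 0.00125). Without siNC replicate 1, 2 or 3, the number that were higher was 3, 3 and 4. Of 18 chemokine and cytokine genes, 6 rose and none fell (18.7% and 14.2% of all genes). CXCL2, a neutrophil attractant, was at 150, 163 and 119 FPKM with siB3GNT3 against 60.5, 55.7 and 54.3 FPKM with siNC (log2 fold change 1.32, limma, adjusted p = 0.000245). IL6 was at 82.2, 68.7 and 41.5 FPKM with siB3GNT3 against 20.7, 19.1 and 19.2 FPKM with siNC. CSF3, the growth factor of granulocytes, had the widest range over the knockdown libraries among genes with a mean of at least 5 FPKM in a group. It was at 14.5, 4.49 and 2.40 FPKM with siB3GNT3 against 1.94, 1.50 and 1.45 FPKM with siNC, and did not pass the test (limma, adjusted p = 0.0548). It passed without siB3GNT3 replicate 1 or 3 (adjusted p = 0.0343 and 0.00163), with a log2 fold change of 0.72 in the first case. Without siB3GNT3 replicate 2 or 3, 1 cytokine gene was called lower, and without siB3GNT3 replicate 1, 1 NF-kB gene was.

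Of 22 tested output genes of the MAPK pathway, 11 rose and 1 fell (18.7% and 14.2% of all genes). The list medians of the difference from the siNC mean were 0.804, 0.725 and 0.0965 in siB3GNT3 replicates 1, 2 and 3. DUSP6, a phosphatase that ERK induces, was at 44.7, 40.3 and 18.5 FPKM with siB3GNT3 and 22.1, 22.3 and 21.5 FPKM with siNC, and did not pass the test (limma, adjusted p = 0.169), but did without siB3GNT3 replicate 3 (adjusted p = 6.1e-06). MYC was at 80.2, 67.8 and 40.4 FPKM with siB3GNT3 against 31.1, 32.2 and 29.3 FPKM with siNC (log2 fold change 0.95, limma, adjusted p = 0.0119). FOSL1, an AP-1 subunit, was the member that fell, at 52.6, 47.6 and 44.4 FPKM with siB3GNT3 against 101, 99.2 and 105 FPKM with siNC (log2 fold change -1.06, limma, adjusted p = 0.000109). The number that were higher was 5, 6 and 19 without siB3GNT3 replicate 1, 2 or 3, and 5, 6 and 5 without siNC replicate 1, 2 or 3. Of 9 ERBB receptors and ligands 1 rose and 1 fell (18.7% and 14.2% of all genes). Those higher were 2, 0 and 4 without siB3GNT3 replicate 1, 2 or 3 and 0 without any siNC library, and 3 were lower without siB3GNT3 replicate 3. HBEGF fell to 6.67, 5.43 and 2.86 FPKM with siB3GNT3, against 11.1, 11.6 and 12.9 FPKM with siNC (log2 fold change -1.16, limma, adjusted p = 0.00637). AREG was at 67.8, 32.5 and 21.6 FPKM with siB3GNT3 and 18.2, 17.1 and 18.3 FPKM with siNC, and did not pass the test (limma, adjusted p = 0.0521). It passed without siB3GNT3 replicate 1 or 3 (adjusted p = 0.0361 and 0.00107), with a log2 fold change of 0.55 in the first case.

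Of 21 death receptor and apoptosis genes tested, 9 rose and 2 fell (18.7% and 14.2% of all genes), so that the share that fell was under that of all genes. TNFSF10, which encodes the death ligand TRAIL, was at 16.4, 16.4 and 17.6 FPKM with siB3GNT3 against 6.20, 6.88 and 7.39 FPKM with siNC (log2 fold change 1.19, limma, adjusted p = 9.83e-05). Its receptor TNFRSF10B was at 69.0, 58.4 and 51.1 FPKM with siB3GNT3 against 35.8, 35.8 and 35.4 FPKM with siNC. The antiapoptotic BCL2L1 fell to 58.0, 54.4 and 58.9 FPKM with siB3GNT3, against 102, 108 and 111 FPKM with siNC (log2 fold change -0.89, limma, adjusted p = 0.000122). BMF, a BH3-only antagonist of that family, rose by 1.14. The number lower was 4 without siB3GNT3 replicate 3 and 1 without any other single library. Among 19 p53 targets 9 rose and 5 fell (18.7% and 14.2% of all genes). SESN2, described above with the stress response, was among those that rose. CDKN1A, the cell cycle inhibitor, was at 14.2, 12.4 and 10.6 FPKM with siB3GNT3 and 12.3, 13.6 and 13.7 FPKM with siNC, with overlapping groups. For the p53 targets the count higher was 4 without siB3GNT3 replicate 2 and 5, 4 and 5 without siNC replicate 1, 2 or 3, and the count lower was 2, 1, 0 and 0 in the same cases.

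Of 26 DNA replication genes 1 rose (CDT1) and 14 fell (18.7% and 14.2% of all genes), and of 26 genes of G2 and mitosis none rose, 9 fell and 17 were not called. List medians were -0.471, -0.323 and -0.175 for replication and -0.452, -0.190 and -0.107 for G2 and mitosis in replicates 1, 2 and 3. CCNE1, the cyclin of entry into S phase, was at 1.96, 2.68 and 3.64 FPKM with siB3GNT3 against 6.90, 7.88 and 6.71 FPKM with siNC (log2 fold change -1.14, limma, adjusted p = 0.00148). TYMS, the thymidylate synthase, was at 29.8, 33.8 and 36.9 FPKM with siB3GNT3 against 50.6, 54.5 and 52.6 FPKM with siNC. MKI67, the proliferation marker, was at 31.6, 36.9 and 45.6 FPKM with siB3GNT3 against 64.5, 68.9 and 65.5 FPKM with siNC (log2 fold change -0.80, limma, adjusted p = 0.00227). The number of mitotic genes lower was 5 and 20 without siB3GNT3 replicate 2 or 3 and 4 without siNC replicate 1, 2 or 3, and that of replication genes 9 without siNC replicate 1 or 2. Over all genes, 1634 of 11493 were lower in the fit of the 6 libraries. That number was 2710 of 11338 without siB3GNT3 replicate 3 and 872 of 11399 without siNC replicate 1. In bulk RNA, fewer cells of a kind and less RNA per cell cannot be told apart.

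Several histone genes rose, while SLBP, whose product binds their mRNA, fell. SLBP protein recognises the stem-loop of replication-dependent histone mRNAs, and its gene (chromosome 4, 1692800 to 1712555, minus strand) was at 8.61, 9.13 and 14.5 FPKM with siB3GNT3 against 44.4, 42.4 and 44.7 FPKM with siNC (log2 fold change -1.97 ± 0.16, limma, adjusted p = 0.000214). Of the 13 genes of this list, 9 rose and SLBP alone fell (18.7% and 14.2% of all genes). H2BC5 was at 87.4, 96.8 and 100.5 FPKM with siB3GNT3 against 40.8, 36.0 and 42.2 FPKM with siNC (log2 fold change 1.24, limma, adjusted p = 9.83e-05), and H2AC6 at 76.8, 65.3 and 62.2 FPKM with siB3GNT3 against 28.98, 29.3 and 30.4 FPKM with siNC. H1-3 was at 9.97, 6.25 and 2.52 FPKM with siB3GNT3 against 1.05, 0.5845 and 0.227 FPKM with siNC, and H3C4 at 9.03, 7.12 and 5.81 FPKM with siB3GNT3 against 1.61, 1.53 and 1.42 FPKM with siNC. Copies of histone genes are near-identical, so the split of reads among them is uncertain. In H1-3 the siNC libraries also differed, with replicate 1 the highest. Without siB3GNT3 replicate 3, 3 members of the list were lower.

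**Figure D4:**
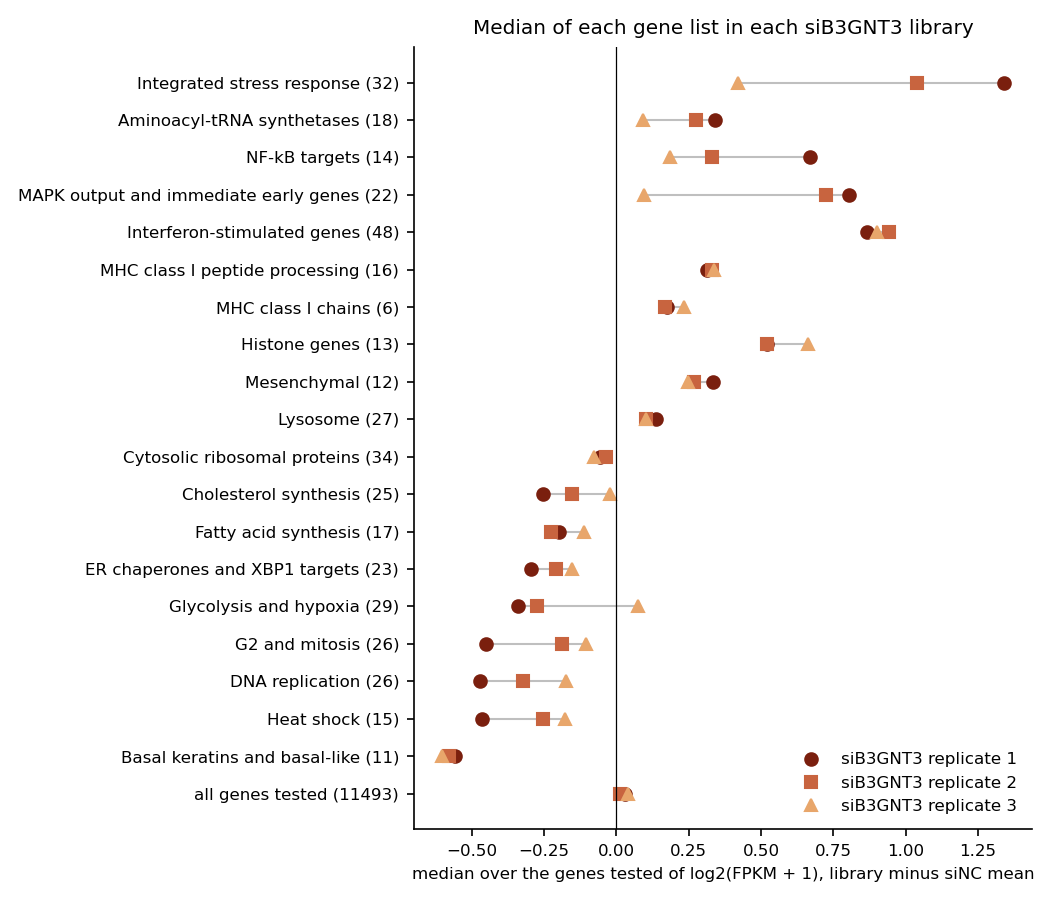
Median over the tested genes of each list (number in brackets) of the difference of 1 siB3GNT3 library from the siNC mean on log2(FPKM + 1), with 1 symbol per library. Stress response, MAPK and heat shock lists are spread out over the libraries, while the interferon, MHC class I and basal lists are not; all genes lie near 0.

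Among the genes that fell most, SLC39A1 and NCEH1 were even over the knockdown libraries. The range of NCEH1 there was 0.106 on the log2 scale, and the median range over all genes tested was 0.238. SLC39A14, TMA7, NDUFA12 and YBX1 had wider ranges, of 0.397, 0.570, 0.552 and 0.530, in that order. SLC39A1, a zinc importer (chromosome 1, 153959099 to 153968184, minus strand), was at 28.4, 28.5 and 30.2 FPKM with siB3GNT3 against 121, 117 and 122 FPKM with siNC. Its log2 fold change of -2.01 ± 0.06 had the smallest adjusted p of all genes tested (limma, adjusted p = 4.03e-06), and its range over the knockdown libraries was 0.0877 on the log2 scale. A related importer, SLC39A14, was at 8.80, 8.51 and 11.5 FPKM with siB3GNT3 against 35.2, 37.1 and 39.0 FPKM with siNC. TMA7 was at 20.9, 24.1 and 31.5 FPKM with siB3GNT3 against 129, 123 and 121 FPKM with siNC. NDUFA12, a subunit of respiratory complex I, was at 20.4, 30.3 and 25.4 FPKM with siB3GNT3 against 107, 93.0 and 102 FPKM with siNC. YBX1, an abundant RNA-binding protein, was at 144, 151 and 209 FPKM with siB3GNT3 against 515, 497 and 504 FPKM with siNC. Pseudogene copies of TMA7 and YBX1 make their levels uncertain. NCEH1, a hydrolase of cholesterol esters, was at 19.9, 20 and 18.5 FPKM with siB3GNT3 against 52.5, 54.9 and 60.0 FPKM with siNC. The other genes that fell most were FGFBP1, ALDH3A1, GPAT3, CCNDBP1, PRADC1 and HSPA2, with log2 fold changes of -1.995, -1.67, -1.53, -1.52, -1.48 and -1.48, in that order. Of these the heat shock gene HSPA2 varied most, at 1.67, 2.52 and 5.51 FPKM with siB3GNT3 against 9.83, 9.91 and 10.2 FPKM with siNC. MMP24, a membrane metalloproteinase, was at 4.74, 3.91 and 16.6 FPKM with siB3GNT3 and 8.08, 8.24 and 8.96 FPKM with siNC, so that replicate 3 lay above the controls and the others below them.

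Among the genes that rose most and belong to no list above were C11orf96, CYP24A1 and OTUD1. C11orf96 was at 13.3, 12.3 and 7.49 FPKM with siB3GNT3 against 1.42, 1.26 and 1.74 FPKM with siNC and had the largest log2 fold change of the genes that rose, 2.25 ± 0.19 (limma, adjusted p = 0.000209). CYP24A1, which degrades vitamin D hormone, was at 22.2, 19.0 and 12.9 FPKM with siB3GNT3 against 4.80, 4.38 and 3.90 FPKM with siNC. OTUD1, a deubiquitinase, was at 47.3, 44.6 and 27.2 FPKM with siB3GNT3 against 10.7, 11.6 and 11.8 FPKM with siNC. In each the knockdown value was lowest in replicate 3.

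**Figure D5:**
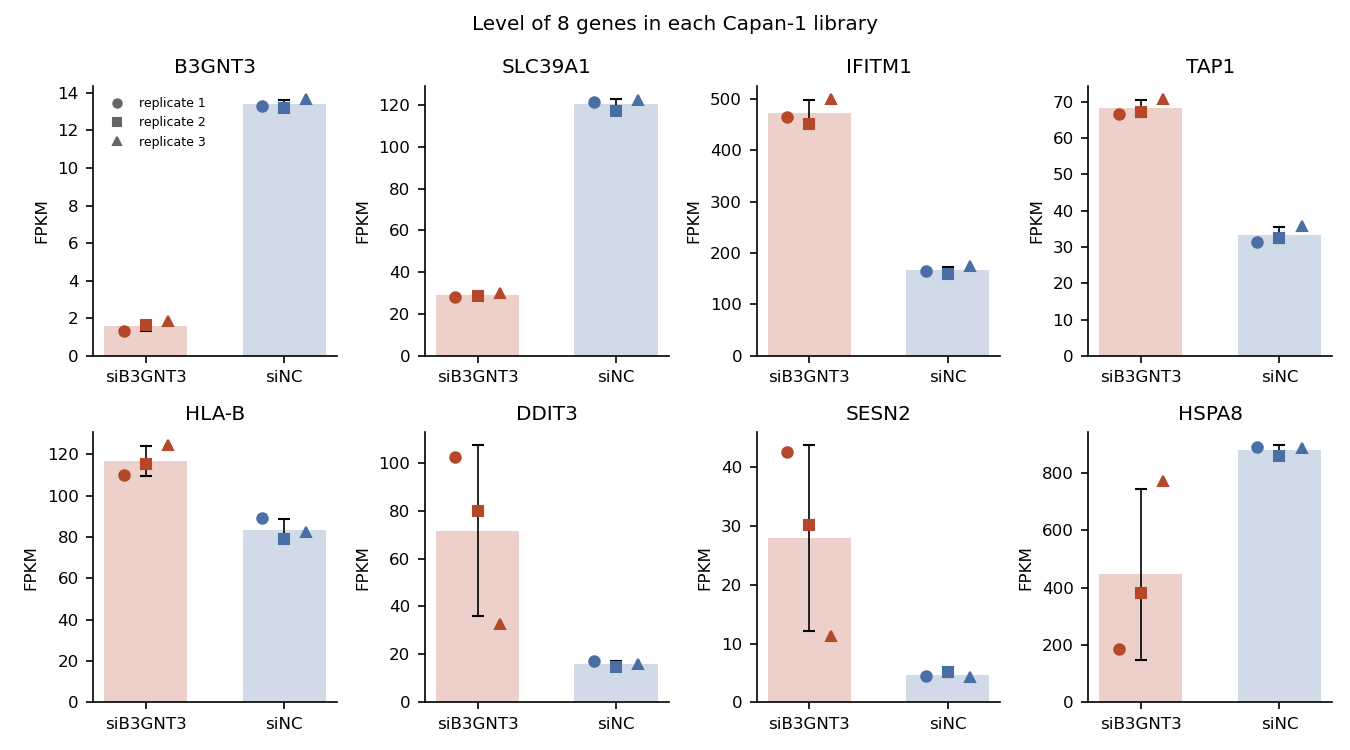
FPKM of 8 genes in each Capan-1 library, with siB3GNT3 left and siNC right in each panel; bars are means, error bars SDs over 3 libraries and symbols the replicates. SLC39A1, IFITM1, TAP1 and HLA-B are tight within siB3GNT3, whereas DDIT3 reaches 102, 79.9 and 32.7 FPKM and HSPA8 187, 380 and 771 FPKM in replicates 1, 2 and 3. B3GNT3 is low in all 3, at 1.32, 1.67 and 1.84 FPKM.

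Of 11 basal genes 6 fell and 1 rose (14.2% and 18.7% of all genes). In none of these 7 was the difference in siB3GNT3 replicate 3 under 0.5 times that in replicate 1. It was so for 13.6% of all genes called at least 2-fold lower and 26.4% of those called at least 2-fold higher. With so few genes the basal list cannot be told apart from these shares. KRT17 was at 7.36, 8.20 and 9.66 FPKM with siB3GNT3 against 19.0, 19.9 and 23.7 FPKM with siNC (log2 fold change -1.22, limma, adjusted p = 0.000334), with pseudogene copies that make its level uncertain. Of 13 epithelial genes 5 fell and 3 rose (14.2% and 18.7% of all genes). KRT18 was at 558, 639 and 643 FPKM with siB3GNT3 against 917, 909 and 976 FPKM with siNC, and CDH1, the epithelial cadherin, at 23.9, 22.0 and 25.5 FPKM with siB3GNT3 against 18.7, 17.4 and 17.4 FPKM with siNC. The summed epithelial list was at 3180 to 4030 FPKM with siB3GNT3 and 4910 to 5140 FPKM with siNC, and mostly keratins. Of 12 mesenchymal genes 6 rose and none fell (18.7% and 14.2% of all genes), among them FN1, fibronectin, which was at 112, 102 and 84.9 FPKM with siB3GNT3 against 54.1, 54.6 and 45.1 FPKM with siNC, while VIM did not pass the test. Of 15 classical lineage genes 4 rose and 4 fell (18.7% and 14.2% of all genes), among them GATA6, at 20.3, 17.4 and 13.5 FPKM with siB3GNT3 against 9.31, 8.86 and 9.28 FPKM with siNC, and CEACAM6, at 10.8, 10.3 and 13.01 FPKM with siB3GNT3 against 16.6, 17.8 and 17.3 FPKM with siNC. Without siNC replicate 1, 2 or 3, the epithelial genes lower were 3, 2 and 3 and those higher 1 in each case, and those higher were 1 and 5 without siB3GNT3 replicate 1 or 3. Mesenchymal genes higher were 3 without siNC replicate 1. Classical genes lower were 1 without siB3GNT3 replicate 2 and 2, 2 and 1 without siNC replicate 1, 2 or 3. Basal genes higher were 2 without siB3GNT3 replicate 2 or siNC replicate 1 and 0 without siNC replicate 3. KRT8 fell in the fit of all 6 libraries (adjusted p = 0.0146) and was not called without siNC replicate 2 or 3 (adjusted p = 0.0515 and 0.0674).

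Of 17 fatty acid genes 7 fell and 2 rose (14.2% and 18.7% of all genes), and 4 were higher without siB3GNT3 replicate 3. FADS2, the delta-6 desaturase, was at 70.1, 67.5 and 81.3 FPKM with siB3GNT3 against 131, 135 and 122 FPKM with siNC (log2 fold change -0.82, limma, adjusted p = 0.000437). Of 25 cholesterol genes 5 fell and 1 rose (14.2% and 18.7% of all genes). The share that fell was near that of all genes, and the share that rose was under it. Cholesterol genes higher were 0, 1 and 3 without siB3GNT3 replicate 1, 2 or 3 and 0 without any siNC library. The number lower was 13 without siB3GNT3 replicate 3, when 2710 of all 11338 genes tested were lower. It was 3 without siB3GNT3 replicate 1 or 2, and 2, 3 and 2 without siNC replicate 1, 2 or 3. Of 29 glycolysis and hypoxia genes 9 fell and 4 rose (14.2% and 18.7% of all genes). PFKFB3, an activator of glycolysis, was at 78.4, 92.8 and 109 FPKM with siB3GNT3 against 176, 185 and 179 FPKM with siNC, while VEGFA, also an ATF4 target, was at 143, 111 and 57.8 FPKM with siB3GNT3 against 34.4, 35.0 and 36.2 FPKM with siNC. The number of these lower was 5 and 18 without siB3GNT3 replicate 1 or 3 and 4, 5 and 4 without siNC replicate 1, 2 or 3, which left 2 higher in each case. Of 34 ribosomal protein genes 3 fell and none rose (14.2% and 18.7% of all genes). Of 13 mitochondrially encoded mRNAs 2 fell, COX3 and ATP6, and none rose, so that the share that fell was near that of all genes. ATP6 was not called with any 1 of the siNC libraries left out (limma, adjusted p = 0.0729 to 0.0802). The ribosomal protein genes lower were 6 under median-ratio scaling and without siB3GNT3 replicate 3, which also left 1 higher, and 1 without siNC replicate 1.

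The response was compared with that of AsPC-1 to ask which changes differ between the lines. In the fit of 12 libraries the difference of the responses passed the test for 1022 of 12134 genes (8.42%). B3GNT3 itself was at 24.2 FPKM in the library that is labelled siB3GNT3 replicate 3 of AsPC-1, against 22.5 to 23.8 FPKM in the AsPC-1 siNC libraries, while siB3GNT3 replicates 1 and 2 were at 2.53 and 2.50 FPKM. Without that library the count was 4316 of 12113 (35.6%), so the number of differences depends on it, and with any other single library left out it was between 501 and 1938. The log2 fold change of SLC39A1 was -2.01 in Capan-1 and -1.88 over AsPC-1 replicates 1 and 2. The difference of its responses was -0.76 ± 0.53 in the fit of 12 libraries (limma, adjusted p = 0.394) and -0.13 without AsPC-1 siB3GNT3 replicate 3 (adjusted p = 0.19), and passed in neither. For DDIT3 the difference was 0.14 ± 0.91 (limma, adjusted p = 0.939) and -0.81 without that library (adjusted p = 0.182), an error too wide to place it. Genes named here were chosen for the size of their change in Capan-1, which favours a difference. The rise of C11orf96, SOCS1 and CYP24A1 was larger in Capan-1, by 2.24, 1.93 and 1.83 on the log2 scale (limma, adjusted p = 0.000284, 0.000142 and 0.000629), and their AsPC-1 fold changes over replicates 1 and 2 were 0.01, -0.12 and -0.03. For YBX1 and NDUFA12 the differences were -1.59 and -1.83 (limma, adjusted p = 0.000267 and 0.000351).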

How the data were processed

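RNA sequencing values of 6 Capan-1 libraries (3 siB3GNT3, 3 siNC) were taken from a table of FPKM per gene that the authors deposited, together with those of 6 AsPC-1 libraries for a single comparison. The submitters' processing notes name Bowtie2, RSEM 1.3.1, DESeq2 1.4.5 and GRCh38, without their roles. The gene annotation, the use of strand and the read totals are not given in the sources used here. FPKM are relative to each library's own total and are not counts, so no count test was run, and depth is known only relative to siNC replicate 1, from the step that 1 read makes in low values. Gene positions are from GENCODE 29 on GRCh38, and promoter sequences from RefSeq on GRCh38.p14.

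Genes that reached 1 FPKM in 3 or more of the 6 libraries were tested on log2(FPKM + 1) with limma 3.58.1 (R 4.3.3; intensity trend, Benjamini-Hochberg adjustment over all genes tested, threshold 0.05); Python 3.11.15, pandas 2.3.3 and matplotlib 3.10.9 served for the rest. The test was checked on simulated data, with independent noise of the spread of the siNC libraries in both groups. That check does not cover the wider spread among the siB3GNT3 libraries. A gene was said to rise or fall only past that threshold. Alternatives were a pseudocount of 0.1, no filter, a filter of 5 FPKM, median-ratio and common-sum scaling, no trend, the replicate number as a block, all 15 libraries, each library left out, and the table without mitochondrial mRNAs.

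Genes were named by a rule: B3GNT3, B4GALT5 and the MHC class I chains, up to 4 genes of each list with the smallest p, up to 15 per direction with the largest change among called genes with groups apart and a group mean of 5 FPKM or more, and the 10 with the widest range over the knockdown libraries. Genes named beside these (ATF4, ATF5, CD274, CDKN1A, DUSP6, GALNT6, HERPUD1, HSF1, HSPA5, IRF1, ISG15, KRT8, MYC, PSMB9, PSMB10, PSME3, RARS1, SLC7A1, SLC7A5, TNFRSF10B, ULBP1, VEGFA, VIM, XBP1 and ZNFX1, and marker genes of other cell types) were chosen after their values were seen. The comparison and the gene lists were chosen with earlier results of these data known. Same-numbered libraries did not deviate together (correlations of deviations -0.00545, 0.052 and -0.0351 for numbers 1, 2 and 3), so the numbers were not used as pairs; these are the numbers of the titles, and the library name of siB3GNT3 replicate 3 holds a 4. Some genes are not reported here.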

Additional observations from a re-analysis of the deposited data

Results flagged for a closer look

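The 30 genes with the largest changes in Capan-1 were chosen on the same libraries, which favours a difference from AsPC-1. Of these, 17 had a response that differed from that in AsPC-1 by a test of the difference itself (limma, 12 libraries, adjusted p under 0.05; 8.42% of all genes did), and 22 did without siB3GNT3 replicate 3 of AsPC-1, a library in which B3GNT3 was at the control level (35.6% of all genes). Differences are Capan-1 minus AsPC-1 in log2 fold change, from the fit of 12 libraries unless said otherwise. Among genes that rose in Capan-1, they were 2.24 for C11orf96, 1.36 for MX2, 1.93 for SOCS1, 1.83 for CYP24A1, 1.60 for SOCS3 and 1.10 for H3C4. Among genes that fell in Capan-1, those of transport and metabolism differed by -2.13 for the zinc importer SLC39A14, -1.83 for NDUFA12, -1.35 for ALDH3A1, -1.06 for GPAT3 and -1.27 for NCEH1. The RNA-binding proteins SLBP and YBX1 differed by -1.61 and -1.59. The remaining differences were -1.91 for TMA7, -1.98 for HSPA1A, -1.44 for FGFBP1 and -1.05 for PRADC1. Without AsPC-1 siB3GNT3 replicate 3 the differences of FGFBP1, H3C4 and GPAT3 were smaller, at -1.08, 0.83 and -0.81. That of SLC39A14 was larger, at -2.265. For 4 genes the AsPC-1 fold change over replicates 1 and 2 was near 0, at 0.01 for C11orf96, -0.12 for SOCS1, -0.03 for CYP24A1 and -0.04 for YBX1. It was 0.69 for MX2, 0.88 for H3C4 and 0.28 for SOCS3, in the direction of Capan-1. For FGFBP1, GPAT3, PRADC1, SLBP and TMA7 it was -0.91, -0.72, -0.68, -0.56 and -0.55, also in that direction. For ALDH3A1, HSPA1A, NCEH1 and NDUFA12 it was -0.44, -0.34, -0.29 and -0.24. For SLC39A14 it was 0.41, opposite to Capan-1.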

How the results depend on the processing

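The fall of B3GNT3 kept its direction and its call under every alternative run. Genes called in at least 1 gene list were 314, between 212 (without siNC replicate 2) and 423 (without siB3GNT3 replicate 3) with a single library left out, 215 with no filter and 236 in the fit of all 15 libraries. Of the 3786 genes called in Capan-1, 209 (121 higher, 88 lower) also changed by at least 2-fold. With a single library left out, calls ranged from 2069 (siNC replicate 1) to 5715 (siB3GNT3 replicate 3), those higher from 1197 to 3005 and those lower from 872 to 2710. With no filter on low values 2645 genes were called. Pairing the libraries by a replicate block gave 3311 calls. The count of responses that differ between the lines was 1022, 497 with a replicate block within each line, and between 501 and 4316 with a single library left out. With no filter MYC, COX3, KRT8, B4GAT1 and HSPA1B were not called (adjusted p = 0.0643, 0.131, 0.0981, 0.0582 and 0.153), and in the fit of all 15 libraries ATF4, IFIH1, KRT17 and GDF15 were not (adjusted p = 0.26, 0.101, 0.0662 and 0.0597). HSPA8, not called in the fit of the 6 libraries, passed under median-ratio scaling, with a replicate block and with all 15 libraries (adjusted p = 0.0457, 0.0301 and 0.0171). Among genes that were not called, the sign of the log2 fold change reversed for MUC1 under median-ratio scaling (-0.0162) and VIM after rescaling to a common sum (0.00325). With a single library left out, it ranged across 0 for CDKN1A (-0.187 to 0.00818), MMP24 (-0.827 to 0.0948) and SLC7A5 (-0.0544 to 0.414). The cause was not tested. Depth is not given with FPKM, so no counting interval can be set on low genes such as the interferon ligands.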

Other observations

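Lysosomal and autophagy genes, antioxidant genes and YAP targets were also measured in the Capan-1 libraries. Of 27 lysosomal genes 9 rose and 1 fell (18.7% and 14.2% of all genes). CTSL, a cysteine protease, was at 59.5, 56.7 and 43.4 FPKM with siB3GNT3 against 34.1, 31.0 and 30.5 FPKM with siNC (log2 fold change 0.71, limma, adjusted p = 0.00345), and NPC1, which exports cholesterol from lysosomes, at 26.9, 22.1 and 19.9 FPKM with siB3GNT3 against 13.9, 15.4 and 13.7 FPKM with siNC. Without siNC replicate 1, 2 or 3, 5 were higher and none lower, and 3 were lower without siB3GNT3 replicate 3. Under median-ratio scaling 5 were higher and 2 lower.

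Of 19 NRF2 targets 7 fell and 2 rose (14.2% and 18.7% of all genes). SRXN1, which repairs peroxiredoxins, was at 26.0, 19.9 and 29.3 FPKM with siB3GNT3 against 45.2, 45.9 and 44.2 FPKM with siNC (log2 fold change -0.84, limma, adjusted p = 0.00216). The number lower was 3 without siB3GNT3 replicate 1 and 4, 3 and 3 without siNC replicate 1, 2 or 3, which left 1 higher in the last 2 cases. Of 15 YAP targets 3 rose and 2 fell, about the shares of all genes. LATS2, a kinase that restrains YAP, was at 8.74, 6.92 and 5.31 FPKM with siB3GNT3 against 3.41, 2.98 and 3.23 FPKM with siNC (log2 fold change 0.90, limma, adjusted p = 0.00327). Without siB3GNT3 replicate 3 the YAP targets that were higher were 7, and 1 was lower without siB3GNT3 replicate 2 or any siNC library.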
